A study of Mus musculus with 2 samples.

Results

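The genes described here are 43 genes that copy the genome and supply its building blocks: the origin recognition complex and licensing factors, the MCM helicase, CDC45 and GINS, the sliding clamp and its loader, the replicative polymerases and primase, RPA and the Okazaki fragment enzymes, and 5 genes for deoxynucleotide supply and DNA untangling. They were taken by name, by their function and by no threshold on a measured value, in a choice made with earlier results of these data known. All 43 were found in the annotation, which holds 21911 protein-coding genes. ATAC-seq, which uses a transposase to tag DNA that is not wrapped in nucleosomes, gave the accessibility of the chromatin around them. The cells were CFU-E, the colony-forming erythroid progenitors that depend on erythropoietin and divide quickly before they mature into red cells. They were primary cells of adult male C57BL/6J mice aged 5 to 6 weeks, with no treatment or altered allele named in the labels, and 50000 cells went into each of 2 libraries, numbered as biological replicates 1 and 2. Both libraries belong to 1 group, so conditions could not be compared and no p-value between samples is given. The labels give each library its own biosample and both the same donor identifier, and do not say whether they came from separate animals, so differences between them may be technical. A pair of sequencing instrument models is listed for replicate 1.

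Replication starts when the origin recognition complex marks origins and, with CDC6 and CDT1, loads the MCM helicase onto DNA in an inactive form. CDC45 and the GINS complex then join MCM to make the active helicase, the polymerases copy both strands behind it, and PCNA, the ring that RFC loads, holds the polymerases on their template. Ribonucleotide reductase, thymidylate synthase and thymidine kinase make the deoxynucleotides that the forks use. Many of these genes are textbook targets of E2F, the factor held in check by the RB proteins until a cell commits to S phase. NF-Y, a factor that binds the CCAAT box, is known at many cell cycle promoters, and GATA1, which binds GATA words, directs the erythroid programme.

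The stretches of DNA under the promoter signal are shown first, because the words in them are counted in the results that follow. Overlapping or adjoining records of the series peak list were joined into 1 region, and the summit is the strongest point of a region. An E2F word was any of TTTGGCGC, TTTCCCGC, TTTGCCGC or TTTCGCGC on either strand, within 100 bp to each side of the summit of a gene's strongest promoter region. Of the 43 genes, 10 had such a word: Orc1, Orc3, Mcm2, Mcm4, Mcm5, Mcm6, Mcm7, Rfc3, Pole and Lig1. The stretches of 8 of them follow, chosen by the number of words and then by peak height, 5′ to 3′ on the strand of the gene, from the RefSeq copy of GRCm38.p6. Capitals mark E2F words, and where a pair on opposite strands overlaps the capitals run together and count as 2. Stretches that lie in annotated exons are limited to 30 bases.
Mcm6, chr1:128359725-128359835, minus strand, 3 words: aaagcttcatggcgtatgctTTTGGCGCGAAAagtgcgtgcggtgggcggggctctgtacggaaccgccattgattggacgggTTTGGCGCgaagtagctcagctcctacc
Rfc3, chr5:151651190-151651219, minus strand, 2 words: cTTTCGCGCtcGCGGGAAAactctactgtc
Mcm2, chr6:88898676-88898705, minus strand, 2 words: gtctagtTTTCGCGCGAAAaccggtggcag
Orc3, chr4:34614965-34614994, minus strand, 1 word: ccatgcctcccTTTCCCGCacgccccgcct
Mcm4, chr16:15637451-15637498, minus strand, 1 word: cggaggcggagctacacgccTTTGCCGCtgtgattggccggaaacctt
Orc1, chr4:108579416-108579445, plus strand, 1 word: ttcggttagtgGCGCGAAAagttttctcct
Lig1, chr7:13278841-13278870, plus strand, 1 word: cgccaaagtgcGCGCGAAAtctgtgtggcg
Mcm5, chr8:75109541-75109568, plus strand, 1 word: gacaaacgcggaggctggttTTTCCCGC

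The Mcm6 stretch ran from position -171 to -61 relative to the annotated 5′ end of the gene, counted as 0, and lay outside annotated exons, as did those of Mcm4 (-98 to -51) and Mcm5 (-28 to -1). The Mcm2 and Rfc3 stretches lay in annotated exons, at 75 to 104 and 23 to 52. The Lig1 stretch lay at 1558 to 1587, near an internal start of that gene. A match to a word is a description of the letters and does not show that a factor was bound.

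The CCAAT box, the word searched for NF-Y, was the more common, with 27 of the 43 genes holding it in the same window. The stretches below show where several boxes lie together. They are from 4 genes with 3 boxes each in the window, upstream of the gene's 5′ end and outside exons, on the strand of the gene and from the same assembly. Capitals mark CCAAT, or ATTGG where the box is on the other strand.
Mcm3, chr1:20820330-20820439, minus strand: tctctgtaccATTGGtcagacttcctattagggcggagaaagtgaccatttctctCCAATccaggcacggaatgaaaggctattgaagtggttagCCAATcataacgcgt
Mcm5, chr8:75109422-75109529, plus strand: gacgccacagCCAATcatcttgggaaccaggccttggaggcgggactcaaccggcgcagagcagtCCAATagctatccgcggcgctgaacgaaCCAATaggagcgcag
Mcm10, chr2:5012800-5012899, minus strand: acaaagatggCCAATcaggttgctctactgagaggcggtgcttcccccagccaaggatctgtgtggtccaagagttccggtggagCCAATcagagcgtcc
Top2a, chr11:99024324-99024426, minus strand: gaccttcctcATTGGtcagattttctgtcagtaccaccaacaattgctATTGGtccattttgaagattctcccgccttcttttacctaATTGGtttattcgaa

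The Mcm10 stretch shows 2 of the 3 boxes in its window, and Cdc45, with 4 boxes, is not printed because they lie in exons. Mcm5 had both kinds of word, with its CCAAT boxes within the printed stretch from -147 to -40 and its E2F word between them and the start.

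The first question was whether the promoters of these genes were accessible in CFU-E and how they stood among all promoters. All 43 genes had an accessible promoter, meaning that a region of the series list, thresholded by the authors on the irreproducible discovery rate (IDR), lay at least in part within 1 kb of an annotated start (100%, exact Clopper-Pearson 95% interval 91.8 to 100). Of the other 21868 protein-coding genes, 45.7% had one. All 43 also had one in the list of replicate 1, where 43.4% of other genes did, and in the list of replicate 2, where 42.5% did. In the conservative series list, again with all 43, the share of other genes was 45.6%, and in the less strict overlap list it was 52.2%. The conservative list held 24458 regions against 24394 in the series list, so it was not the shorter of them. Genes with a CpG-rich promoter, here GC of at least 50% and an observed to expected CpG ratio of at least 0.6 within 500 bp of a start, are accessible in most cell types, and 37 of the 43 (86.0%) were of that kind against 51.2% of other genes. Among other CpG-rich genes the share with a region was 73.4%, and among other genes without such a promoter it was 16.7%. The 6 replication genes without a CpG-rich promoter, Orc4, Mcm10, Gins1, Prim1, Tyms and Tk1, were accessible as well. Some missed the criterion narrowly, such as Orc4 with a CpG ratio of 0.569 and Mcm10 with a GC of 49.5%. The strongest regions of Orc4, Gins1 and Tk1 also lay near the start of a coding gene on the opposite strand. In a bulk assay, a region that is open in part of the cells and one that is weakly open in all of them cannot be told apart.

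The height of a region is given as the authors' fold enrichment at its strongest record, a ratio over the peak caller's local background, in the order series list (the joint list of both libraries), replicate 1 list, replicate 2 list. Each list has its own scale, so values are compared between genes within a list. Over the 43 genes the series fold had a median of 12.1 and ran from 4.25 at Tk1 to 16.8 at Pola1. The other genes with a promoter region had a median of 10.7, and those with a CpG-rich promoter 10.9. The authors' −log10 p, which grows with both height and read number, had a median of 159 for the 43 genes (60.9 to 248) and 128 for the others. With genes lacking a region placed at the bottom, the 43 had a median percentile of 84.5 among all other protein-coding genes by fold (54.9 to 98.5), and 29 stood in the top 25% and 12 in the top 10%. By −log10 p the median percentile was 85.7, with 34 in the top 25% and 16 in the top 10%. Fold and −log10 p ranked some genes differently: among all other genes Tyms stood at percentile 91.0 by fold (13.5) and 70.5 by −log10 p. Its −log10 p of 103 was below the median of other genes with a region. The percentile of the lowest, Tk1 at 54.9, lay just above the 54.3% of other genes that had no region.

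**Figure D1:**
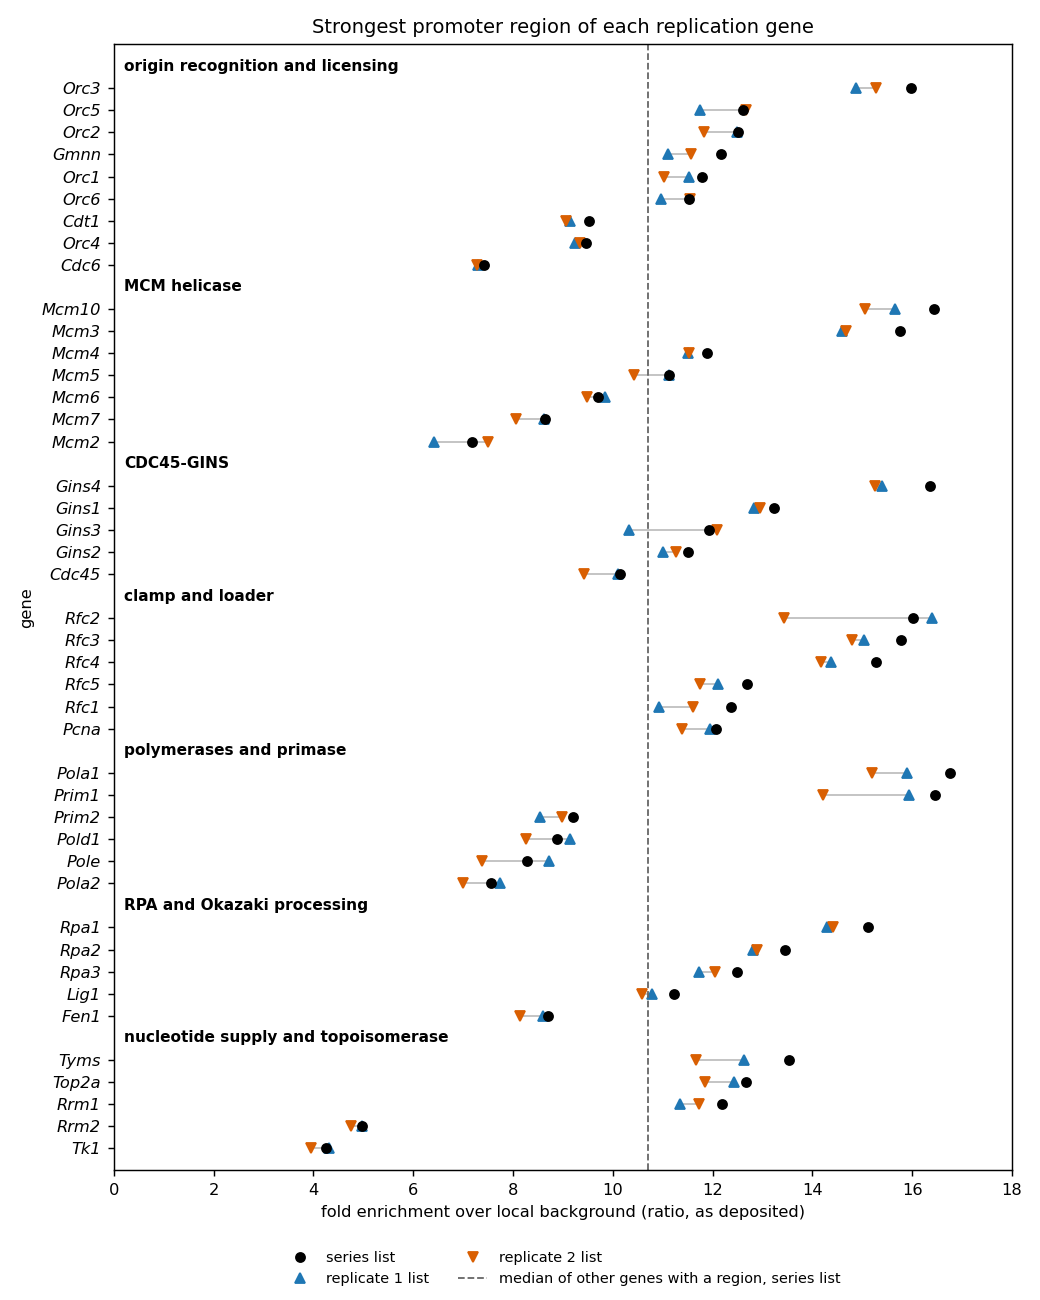
Fold enrichment of the strongest promoter region (x axis, ratio over local background) for each of the 43 genes (y axis, grouped by role), with separate symbols for the series list and the lists of replicates 1 and 2, and a line at the median of other genes. Tk1 at 4.25 and Rrm2 at 4.97 sit apart at the low end, and Pola1 is the highest at 16.8.

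Order among the genes was similar in both libraries: Spearman's rho between the replicate folds was 0.94 across the 43 genes, which are not independent replicates. The fold was numerically higher in the replicate 1 list for 26 genes and in the replicate 2 list for 17. The strongest promoter region overlapped a region of both replicates for all 43 genes, also when the overlap had to cover at least 50% of the smaller region. This overlap was not counted for other genes. Of those, 9994 had a promoter region in the series list, 9482 in that of replicate 1 and 9295 in that of replicate 2, so presence in both may be common.

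Most summits sat close to the start. The summit was within 100 bp of an annotated start for 36 of the 43 genes (83.7%), against 67.3% of other genes with a region, and the median distance was 40 bp against 57 bp. Region width was much like that elsewhere, with a median of 979 bp (323 to 1656 bp) against 942 bp. Width and fold had a Spearman's rho of -0.14 across the 43 genes and 0.21 across the others.

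Among the origin and licensing genes, the ATPase-containing origin recognition complex is encoded by Orc1 to Orc6. Orc3 had the highest fold of the 9 genes, 16.0 in the joint list, 14.9 in replicate 1 and 15.3 in replicate 2, at chr4:34614540-34615273 on mm10, with its summit 1 bp from a start, in an exon. The other subunits lay between 9.46 at Orc4 and 12.6 at Orc5. Cdc6, the ATPase that works with CDT1 in loading the helicase, was the lowest, with 7.43 in the joint list, 7.31 in replicate 1 and 7.28 in replicate 2, at chr11:98907420-98908219 just upstream of the gene. Cdt1, its partner in loading, had 9.53, and Gmnn, which encodes the CDT1 inhibitor geminin, had 12.2. The Gmnn promoter stood above those of both loading factors in all 3 lists. Gmnn had another region, chr13:24761780-24762316, with a fold of 10.2 and its summit at -70 from the gene's 5′ end.

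The MCM genes encode the ring that unwinds DNA, except Mcm10, whose product helps to switch the ring on. Mcm10 had 16.4 in the joint list, 15.6 in replicate 1 and 15.1 in replicate 2, at chr2:5012451-5013199. Mcm2 was the lowest, with 7.19, 6.42 and 7.50, at chr6:88898321-88898947, where the summit lay in an exon. The 6 subunits of 1 ring thus covered a range from 7.19 at Mcm2 to 15.8 at Mcm3, and Mcm3 was the higher of the pair in both replicates as well. Mcm4, Mcm5, Mcm6 and Mcm7 had 11.9, 11.1, 9.70 and 8.64. The Mcm7 region, 1656 bp, was the widest of the 43.

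CDC45 and GINS complete the helicase. Gins4 had the highest fold, 16.3 in the joint list, 15.4 in replicate 1 and 15.3 in replicate 2, at chr8:23237542-23238181. Cdc45 had the lowest, 10.2, 10.1 and 9.42, at chr16:18811111-18812632, a region of 1522 bp with its summit in an exon. Gins2 and Gins3 had 11.5 and 11.9, between those genes. At Gins1 (13.2) the summit lay at -633 from the start, toward the divergent gene Abhd12. A similar region, chr2:150909406-150910282 with 13.1, lay in an intron at an internal start of Gins1, and both were found in both replicates.

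The clamp and its loader formed the group with the highest median fold, 14.0 over 6 genes. Rfc2, a small subunit of the loader, had 16.0 in the joint list, 16.4 in replicate 1 and 13.4 in replicate 2, at chr5:134582513-134583054. This summit lay in an exon at an internal start, 1365 bp into the gene, and no region overlapped the window around the 5′ end of Rfc2. Among the 43 genes Rfc2 was the highest in the replicate 1 list, whereas Orc3 was in the replicate 2 list, where Rfc3 (14.8) led the clamp and loader group. Pcna, the clamp itself, had 12.1, 11.9 and 11.4, at chr2:132252513-132253545, the lowest of the group in the joint and replicate 2 lists, while Rfc1 was the lowest in replicate 1 (10.9). Rfc3 and Rfc4 had 15.8 and 15.3, and Rfc1, the large subunit, and Rfc5 had 12.4 and 12.7.

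The polymerase and primase genes fell into a high and a low set, with none between 9.20 and 16.5. Polymerase alpha with primase lays down the RNA-DNA primers, and 2 of its 4 genes were among the highest of all. Pola1, the catalytic subunit on the X chromosome, had 16.8 in the joint list, 15.9 in replicate 1 and 15.2 in replicate 2, at chrX:93631881-93632677. Prim1, the catalytic primase subunit, had 16.5, 15.9 and 14.2. Their partners were in the low set: Pola2 had 7.55, 7.74 and 6.99, at chr19:5963827-5964551, and Prim2 had 9.20, 8.54 and 8.98. So within both pairs of this 1 complex the catalytic subunit had the higher fold in all 3 lists. The catalytic subunits of polymerases delta and epsilon, Pold1 and Pole, had 8.89 and 8.29, and the median of the group, 9.04, was the lowest of the 7.

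RPA coats single-stranded DNA. Rpa1, its large subunit, had 15.1 in the joint list, 14.3 in replicate 1 and 14.4 in replicate 2, at chr11:75347861-75348935, and with 248 the highest −log10 p of the 43 genes. Rpa2 and Rpa3 had 13.4 and 12.5. Fen1, the flap nuclease that trims Okazaki fragments, was the lowest of its group with 8.69, 8.60 and 8.14, at chr19:10203599-10204505, and had 3 promoter regions. Lig1, the ligase that seals the fragments, had 11.2.

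The nucleotide genes included the lowest promoters of the 43 beside some well above the median of other genes. Rrm2, the small subunit of ribonucleotide reductase, had 4.97 in the joint list, 4.97 in replicate 1 and 4.76 in replicate 2, at chr12:24708032-24708391. Its partner Rrm1, the large subunit, had 12.2, 11.4 and 11.7. The protein of Rrm2 is known to be made in S phase and destroyed afterwards, whereas that of Rrm1 is long-lived. Tk1, the salvage kinase for thymidine, had 4.25, 4.31 and 3.94 at chr11:117825703-117826025, the lowest in every list, and Tyms, which makes thymidylate anew, had 13.5, 12.6 and 11.7 at chr5:30072867-30073939. Tyms was the highest of the group in the joint and replicate 1 lists, and in replicate 2 it stood just below Top2a (11.9) and Rrm1. The regions at Tk1 and Rrm2 were also the narrowest of the 43, at 323 and 360 bp. Top2a, the topoisomerase that separates the finished chromosomes, had 12.7, with a region of 1575 bp.

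**Figure D2:**
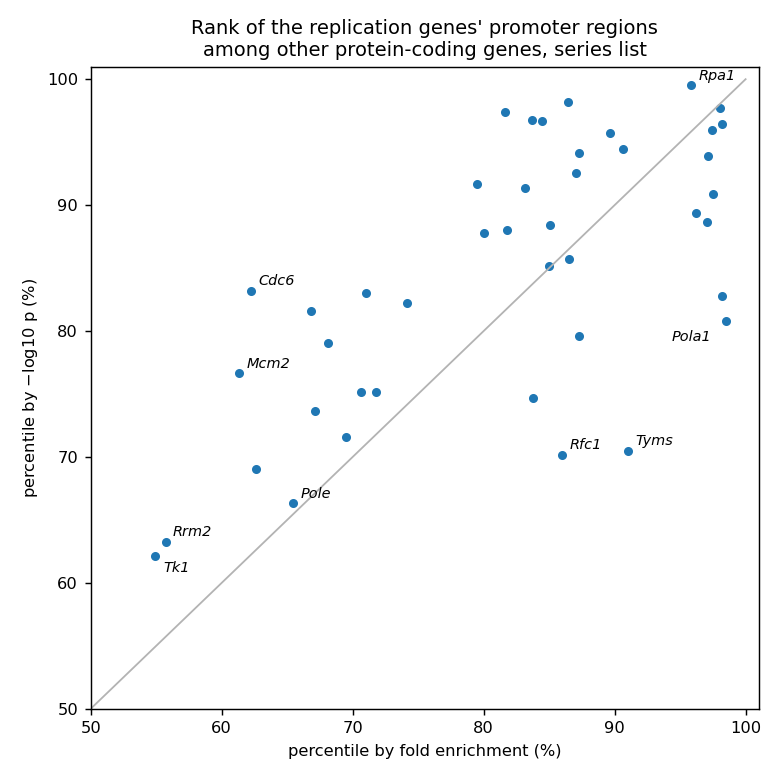
Percentile of each gene's strongest promoter region among all other protein-coding genes, by fold (x axis, %) and by −log10 p (y axis, %), series list, 1 point per gene, both axes starting at 50% and the line marking equal ranks. Tk1 is the lowest on both (54.9 and 62.1), Rpa1 is the highest by −log10 p (99.5) and Pola1 by fold (98.5), and Tyms and Rfc1 lie far below the line.

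When only the upper 50% of regions by fold were kept (a series fold of at least 7.57), 38 of the 43 genes still had a promoter region against 37.3% of other genes. The 5 that dropped out were Cdc6, Mcm2, Pola2, Rrm2 and Tk1. Just inside this threshold stood Pole (8.29) and just outside it Pola2 (7.55).

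Beside their strongest region, 11 of the genes had 13 further promoter regions, of which 7 were in both replicates and 6 were not. The 7 were those at Gmnn (10.2), Gins1 (13.1), Rfc2 (8.06), Rfc5 (5.42), Fen1 (7.02 and 5.10) and Tk1 (3.72). Rfc3 had an internal region of 4.82 and Orc1 one of 4.43 that were in neither replicate's own list. Cdt1 had one of 3.996 found in replicate 2 alone. Regions of 4.82 at Gins4, 3.61 at Tk1 and 3.33 at Rrm2 were found in replicate 1 alone. Fold in the series list was below 5 for each of these 6. Further promoter regions of other genes, and their presence in both replicates, were not counted. A gene with more annotated starts also has more windows in which such a region can lie. The number of further regions is therefore not shown to be particular to the replication genes.

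Several of these promoter regions also lay within 1 kb of the start of a neighbour. For 14 of the 43 genes (32.6%), the strongest region also overlapped the same 1 kb window of a coding gene on the opposite strand, against 22.3% of other genes with a region. They were Orc1 with Prpf38a, Orc3 with Rars2, Orc4 with Mbd5, Orc6 with Vps35, Mcm4 with Prkdc, Mcm7 with Ap4m1, Cdc45 with Ufd1, Gins1 with Abhd12, Pole with Pxmp2, Rpa1 with Smyd4, Rpa3 with Umad1 and Gm45062, Fen1 with Tmem258, Lig1 with Zswim9, and Tk1 with Afmid. The height of such a region cannot be assigned to 1 gene of the pair. Among them is Prkdc, which encodes the catalytic subunit of the DNA-dependent protein kinase of double-strand break repair.

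The next question was which words the summits held. E2F words were present for 10 of the 43 genes (23.3%, exact interval 11.8 to 38.6), against 3.42% of other genes with a promoter region and 3.63% of those with a CpG-rich promoter. At least 2 words were present for 3 genes (Mcm6, Mcm2 and Rfc3), and for 0.0700% of other genes. In the MCM ring 5 of the 6 subunits held 1 or more, Mcm3 being without. Of the other 37 genes, 5 had a word: Orc1, Orc3, Rfc3, Pole and Lig1. No gene of the CDC45 and GINS group and none of the 5 nucleotide supply and topoisomerase genes had a word in this window.

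The count turned on the window and the word. Within 50 bp of the summit 3 genes had an E2F word (Mcm2, Mcm6 and Pole; 6.98% against 1.39%), so in 7 of the 10 genes every word lay farther out. In a window from 250 bp before to 50 bp after the gene's 5′ end, internal starts being left out, 12 genes had one (27.9% against 4.44%). That window added Cdc6, Cdt1, Gmnn, Mcm3 and Pola1 and lost Mcm2, Mcm7 and Lig1, which brought the licensing factors in. With the words shortened by their first T, 18 genes had a match, 41.9% against 15%. At the summits of the replicates' own lists the counts were 12 in replicate 1, where Gmnn and Gins3 were added, and 10 in replicate 2.

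CCAAT was present for 27 genes (62.8%, exact interval 46.7 to 77), against 36.5% of other genes and 36.7% of the CpG-rich ones, and 17 genes had at least 2 boxes against 14.9%. All 5 genes of the CDC45 and GINS group had the box, Cdc45 with 4, as did 6 of the 7 MCM genes, Mcm2 being the exception. The clamp and loader had it least often, in Pcna and Rfc1 alone of 6. Both words occurred together for 6 genes (14.0% against 1.41%), namely Orc1, Mcm4, Mcm5, Mcm6, Mcm7 and Pole. Neither occurred for 12 (27.9% against 61.5%).

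The other words differed from other promoters by fewer percentage points, though not all by a smaller ratio. GATA words (AGATA or TGATA followed by A or G) were present for 2 genes, Mcm7 and Pola1 (4.65%, exact interval 0.568 to 15.8), against 12.4%. The ETS word CCGGAAGT was present for 8 (18.6%, exact interval 8.39 to 33.4) against 9.26%, a larger ratio than that of CCAAT. At least 2 ETS words were present for 2 genes and for 0.921% of other genes. The E-box CACGTG was present for 6 (14.0%) against 8.25%. The GC box GGGCGG was present for 30 (69.8%) against 64.5%. KLF words (CCACACCC, CCCCACCC, CCACGCCC or CCCCGCCC, the last of which contains a GC box) were present for 20 (46.5%) against 43.6%. The NRF1 word, GCGCA followed by any base and then GCGC, was present for 2 (4.65%) against 9.80%, at Rfc2 and Pola2. The cell cycle homology word TTTGAA, known from genes of G2 and mitosis, was present for 1, Top2a (2.33%), against 5.25%. For each of these 7 words the share among other genes lay within the exact interval of the 43 in this window. Other windows moved some of them. Within 50 bp of the summit the ETS word was present for 7 genes (16.3% against 6.41%). From 250 bp before to 50 bp after the gene's 5′ end it was present for 9 (20.9% against 8.88%). GATA words were present for 1 gene (2.33% against 7.49%) and 6 (14.0% against 19.4%) in those windows. The cell cycle homology word was present for 5 near the 5′ end (11.6% against 12.7%). KLF words were present for 13 genes (30.2% against 29.9%) and the NRF1 word for 1 (2.33% against 5.89%) within 50 bp.

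**Figure D3:**
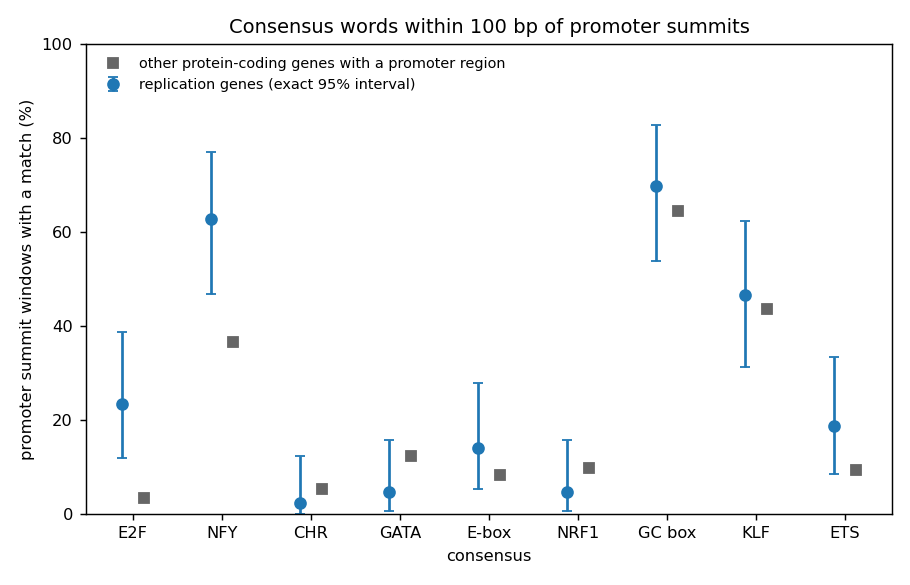
Percent of promoter summit windows with each word (y axis, %; words along the x axis, NFY being CCAAT and CHR the cell cycle homology word), as circles with exact 95% intervals for the 43 genes and squares for other protein-coding genes with a promoter region. For E2F (23.3% against 3.42%) and CCAAT (62.8% against 36.5%) the square lies outside the interval, and for the other 7 words it lies inside.

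The third question was which distal regions lay near these genes, distal meaning that no start of any gene was within 1 kb and that the nearest protein-coding start, within 100 kb, belonged to the gene. Of the 43 genes, 14 had at least 1 distal region (32.6%), against 25.0% of other genes and 33.9% of other genes with a CpG-rich promoter. There were 34 such regions, a mean of 0.791 per gene against 0.504 for other genes and 0.721 for other genes with a CpG-rich promoter. The median was 0 in each of these sets. Nearness does not show which gene a region acts on. The regions lay in introns (14), exons (5) and between genes (15), and their median fold, 6.34 (2.62 to 15.6), was close to the 6.50 of other genes' distal regions.

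Rrm2 had the most, with 8 distal regions, a number reached by 0.526% of other genes. It thus combined the weakest promoter but 1 with the largest distal count among the 43. The nearest upstream region, chr12:24706683-24707151, lay at -1.32 kb and had a fold of 5.93, above the 4.97 of the Rrm2 promoter itself. The farthest, chr12:24744237-24744609, lay 36.2 kb downstream of the 5′ end with 8.32. Of the 8, 5 were in both replicates, chr12:24697143-24697425 (8.57) was in replicate 2 alone, and those of 4.47 and 3.01 were in neither. The replicates' own lists held 5 and 6 distal regions for Rrm2.

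Prim2 had 6, of which 5 lay within its own introns. The strongest distal region of the whole set was one of them, chr1:33574313-33574999, with 15.6 in the series list, well above the 9.20 of the Prim2 promoter. It was found in both replicates. Pola2, the other low partner of the primer-making complex, had 4, the strongest being chr19:5937765-5938552 with 12.1, also above its promoter at 7.55. Cdc6 had 3, all in both replicates and between 3.88 and 5.76. Orc5, Gins2 and Rpa1 had 2 each. The Gins2 pair, in introns of another gene, was in neither replicate's own list. Other strong regions were chr5:22557530-22558070 near Orc5 (14.1), chr8:85318222-85319200 near Orc6 (14.0) and chr8:95610601-95611244 near Gins3 (10.8), each in both replicates. When the starts of all annotated genes competed, non-coding ones included, these 3 and the 15.6 region near Prim2 were assigned to other genes. Prim2 then kept 3 regions, Orc5 kept 1, of 4.06, Rrm2 kept 7, and Pola2 and Cdc6 kept their 4 and 3. Orc2, Orc6, Gmnn, Mcm6, Gins3, Rrm1 and Tk1 had 1 each, and the other 29 genes, every clamp and loader gene among them, had none.

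Of the 34 regions, 21 were found in both replicates (61.8% against 50.1% of other genes' distal regions). Replicate 1 alone had 4, replicate 2 alone had 3, and 6 were in neither list. The strongest promoter regions, by comparison, were in both for all 43 genes.

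**Figure D4:**
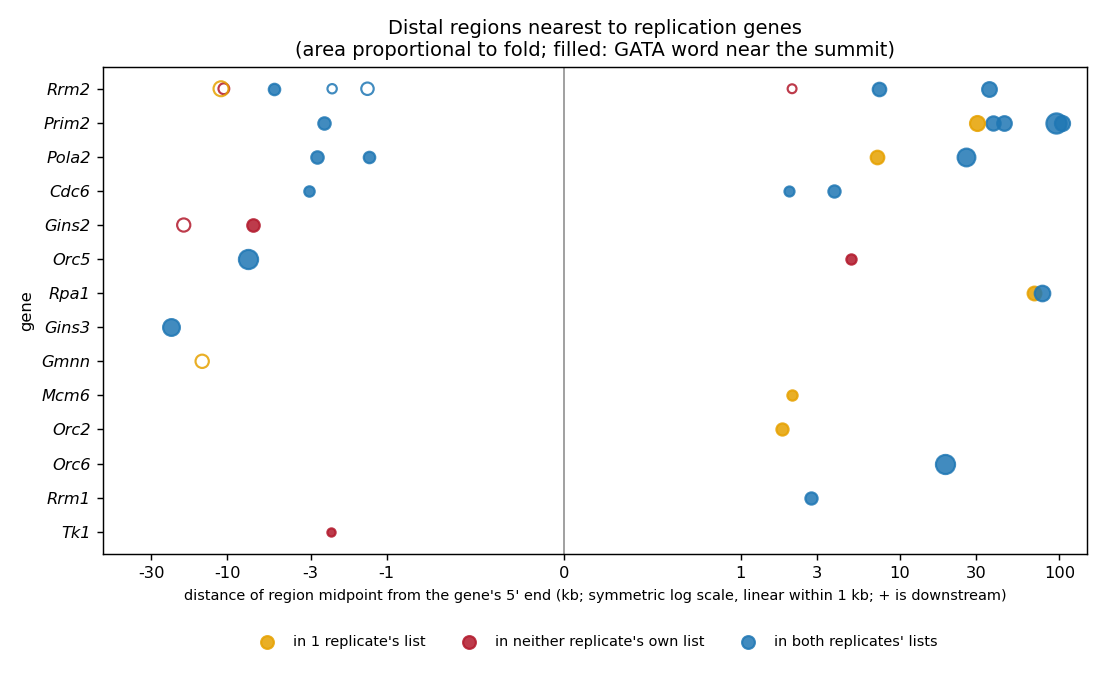
Distance of each of the 34 distal regions from the 5′ end of its gene (x axis, kb, symmetric log scale) for the 14 genes that had any (y axis), with symbol area proportional to fold, colour showing whether both, 1 or neither replicate list held the region, and filled symbols marking a GATA word at the summit. Rrm2 has 8 regions on both sides of its start, 3 of them filled, and all 6 of Prim2 are filled.

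At distal summits GATA words were the most common of the 5 kinds searched there. They lay within 100 bp of the summit in 27 of the 34 regions (79.4%, exact interval 62.1 to 91.3), against 49.3% of the distal regions near other genes. Regions of 1 gene share a locus, so the interval covers counting error only. Among the regions found in both replicates the shares were 90.5% and 57.4%. E2F words were found in 0 of 34 (upper bound 10.3%) against 0.726%, ETS words in 0 against 0.617%, and KLF words in 2 (5.88%) against 19.0%. CCAAT was found in 5 (14.7%) against 21.5%.

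The stretches below are those around the summit words of the Rrm2 regions and of the regions with at least 4 words near Orc2, Orc5 and Prim2, from the same assembly. Capitals mark a GATA word or its reverse complement, and for Rrm2 the word nearest the summit.
Rrm2, chr12:24744514-24744559, plus strand: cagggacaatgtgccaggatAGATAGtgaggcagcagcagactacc
Rrm2, chr12:24715590-24715635, plus strand: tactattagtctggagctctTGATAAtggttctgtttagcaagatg
Rrm2, chr12:24703147-24703192, minus strand: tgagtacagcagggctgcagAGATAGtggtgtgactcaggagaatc
Orc2, chr1:58503246-58503380, plus strand: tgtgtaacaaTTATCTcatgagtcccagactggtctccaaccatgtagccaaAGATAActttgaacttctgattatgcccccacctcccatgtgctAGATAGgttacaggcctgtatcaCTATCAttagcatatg
Orc5, chr5:22545417-22545548, plus strand: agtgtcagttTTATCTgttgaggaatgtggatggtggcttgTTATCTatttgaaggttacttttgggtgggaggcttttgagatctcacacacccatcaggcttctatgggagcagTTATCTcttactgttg
Prim2, chr1:33631297-33631460, plus strand: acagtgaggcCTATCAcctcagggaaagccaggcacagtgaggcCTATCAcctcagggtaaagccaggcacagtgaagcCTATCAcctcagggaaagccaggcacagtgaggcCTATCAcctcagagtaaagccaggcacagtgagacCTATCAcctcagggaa

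In the Prim2 region, chr1:33631149-33631562 with a fold of 7.82, the 5 words were spaced 34 to 35 bp apart in a tandem repeat. Reads in a repeat can be hard to place, and the authors' handling of them is unknown here. The words near Orc2 and Orc5 were spaced irregularly, 23 to 44 bp and 31 to 75 bp apart. For Orc5, 3 of its 4 words are shown. The Orc2 region was found in replicate 2 alone and the Orc5 region in neither. Of the 8 Rrm2 regions, 3 had a GATA word at the summit, all in both replicates.

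A wider list of 71 genes of the same processes served for comparison. Of these, 69 had an accessible promoter (97.2%, against 45.7% of all protein-coding genes outside the 43), 67 in replicate 1 and 66 in replicate 2. A CpG-rich promoter was present for 66 of the 71 (93.0%), against 86.0% of the 43. The highest were Cad (15.9), the enzyme that starts pyrimidine synthesis, Impdh2 (15.8), which starts guanine nucleotide synthesis, and Pole4 (15.03), a small subunit of polymerase epsilon. Dctd, which deaminates dCMP, had no region in any list, and Impdh1, the other form of IMP dehydrogenase, had none in the series list. Shmt2 (4.61) and Prps2 (7.14) had a region in the joint list that neither replicate's own list held, and Ctps2 (9.56) had one in replicate 1 alone. The median fold was 10.8 and the median percentile 77.6, so the wider list stood lower than the 43 genes in both. E2F words were present for 10 of the 69 (14.5%, exact interval 7.17 to 25.0), against 3.42% of all genes outside the 43 with a promoter region. This interval overlaps that of the 43 genes.

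The labelled cell type was checked against markers. An accessible promoter was found for the 9 erythroid markers reported here, among them Gata1, Klf1 and Epor (4.11 to 9.36). It was also found for 3 of 5 megakaryocyte markers, Itga2b, Gp9 and Gp1ba (3.30 to 10.03), and 1 of 4 T cell markers, Lck (8.99). None of the 6 granulocyte and monocyte markers and none of the 4 B cell markers had one. Of all protein-coding genes outside the replication genes, 45.7% had one, with a median fold of 10.7. Every erythroid marker lay below that median, and Lck lay above all of them but Epor. Fold therefore did not set the erythroid markers apart, and the check rests on presence in small lists. The part of other cells in the values above was not tested. Read depth is unknown from peak lists. The series list held 24394 regions, that of replicate 1 held 18685 and that of replicate 2 held 17854.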

How the data were processed

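ATAC-seq peak lists of 2 CFU-E libraries (1 group) were the starting point. The authors' lists are on mm10, 1 set for each replicate and 1 for both together, per the deposited listing. Which aligner, caller and versions made them is "not given in the sources used here". A peak's fold is the authors' ratio over local background, the −log10 p is the authors' value, and the authors' IDR score is at least 540 in the thresholded lists and capped at 1000. They were used only to describe and rank within a list. The summit is the authors' too. Records were merged into regions and assigned to GENCODE M21 genes on GRCm38.p6 with Python 3.11.15, NumPy 2.4.6 and SciPy 1.17.1, and drawn with Matplotlib 3.10.9. Merging, assignment and word search were tested on simulated data. Genes were counted by symbol. Intervals are Clopper-Pearson 95% and cover counting error over genes or regions only. No test between groups or lists was made.

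The genes, role groups, comparison list, markers and words were chosen with earlier results of these data known. Every gene was accounted for, and full values were given to the highest and lowest of each role group, the 5 genes with the most distal regions, genes not in both replicates, genes next to a threshold, and, of the comparison list, the 3 highest and those without a region. Other genes named were chosen after their values were seen. Alternatives were the promoter window, the distance, the peak list, the rank measure, the word window and each replicate alone. An archived replicated list, ranked lists and signal tracks were not used here. 1 erythroid marker of the chosen list is not reported here.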

Additional observations from a re-analysis of the deposited data

How the results depend on the processing

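All 43 genes had an accessible promoter with windows of 500 bp and 2 kb, by region midpoint, in the conservative and overlap lists, and in either replicate alone (43 to 43). The 2 kb window contains the 1 kb window and could not give fewer, and the less strict overlap list was unlikely to. The conservative list was about as large as the series list (24458 regions against 24394). These 3 settings therefore say little about robustness. With 5′ ends alone 42 did (Rfc2 lacking), and 38 with the upper 50% of regions. The comparison list gave 62 to 70 over the same settings, and 66 to 67 with 1 replicate left out. Distal regions numbered 34. They numbered 79 in the overlap list and 12 with the upper 50% by fold, 23 to 40 under the other settings, and 24 to 26 with 1 replicate left out. The median percentile was 85.7 by −log10 p and 84.0 to 85.5 with 1 replicate left out. E2F words were found for 3 genes within 50 bp of the summit, 12 near the gene's 5′ end, 10 to 12 with 1 replicate left out, and 18 with shortened words. The E2F share of the 43 genes was above that of other genes under each of these. The distal GATA share was 57% against 41.8% in the overlap list. Elsewhere it was 64.7% to 90.5%, and the share near other genes moved as well, from 38.2% to 57.4% over the same settings. The shortened words, the E2F counts with 1 replicate left out and all distal GATA settings were chosen after seeing the data. Other causes of these shifts were not tested. No paired analysis was possible because there is 1 group. Depth is unknown from peak lists, so a gene without a region may have one below the threshold.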

Other observations

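The authors' IDR score grows with repeatability between peak sets and was taken as the highest over the records of a region. It was at its cap of 1000 for the strongest promoter region of 42 of the 43 genes. How many other genes reached the cap was not counted, so this is not shown to be particular to the 43. The exception was Mcm10 at 970, although its fold of 16.4 was among the highest of the 43. The lowest score in the list was 540.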
